A study of Oryctolagus cuniculus with 17 samples.

Results

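The effect of hyperoxia on lung transcripts after 7 days was compared with the effect after 3 days in preterm rabbits. 12 of the 17 RNA-seq libraries of the series entered this comparison, 3 in each of the groups HT3, NT3, HT7 and NT7. All pups were New Zealand White rabbits delivered by C-section on gestation day 28 and fed with a milk replacer. HT3 and HT7 pups were kept at 95% oxygen until postnatal day 3 or 7, and NT3 and NT7 pups were kept at 21% oxygen until the same days. RNA came from homogenized right lung, so each library mixes all cell types of the organ, and fewer cells of a type cannot be told apart from less RNA per cell. The other 5 libraries, HT5 and NT5, are shown only for the order of the days. The authors deposited raw counts, and each locus of their table was counted once, which left 12628 tested loci of 13313.

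For each locus, the effect of a day is the log2 ratio of hyperoxia to normoxia on that day. The difference is the day 7 effect minus the day 3 effect, so that a positive difference means that a transcript stood higher under hyperoxia on day 7, relative to normoxia, than it did on day 3. Effects and differences are on the log2 scale. Levels are in CPM, the counts of a locus scaled to the size of its library, and are not corrected for transcript length. They are compared between libraries for 1 locus, for the sum of a list, or as the median of a set of loci. A sum over a list weighs its members of highest level most. Levels of separate libraries are given in the order of replicates 1 to 3. Differences were tested with the quasi-likelihood test of edgeR and adjusted by Benjamini-Hochberg over all tested loci. Adjusted p-values in the text come from this test, and a transcript is said to rise or fall where its difference was above or below 0 at an adjusted p under 0.05. As the labels do not say that replicates are separate litters, the p-values measure the spread between these libraries.

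The preterm lung is exposed to oxygen while it is still forming its alveoli and capillaries. High oxygen produces reactive oxygen species, which damage DNA and proteins, and cells answer through sensors such as p53, which follows DNA damage, and NRF2, which controls antioxidant enzymes. The capillary endothelium and the thin alveolar type 1 cells form the gas exchange surface and are known targets of oxygen injury, while alveolar type 2 cells make surfactant and can replace type 1 cells.

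At an adjusted p under 0.05, the hyperoxia effect differed between the days at 2490 loci (19.7% of those tested), of which 1091 (8.64%) had a higher and 1399 (11.1%) a lower effect on day 7. With the stricter thresholds of the study, an adjusted p under 0.01 and a difference above 2 or below -2, 191 loci (1.51%) were called, 58 (0.459%) higher and 133 (1.05%) lower. Nearly all of the 2490 loci gained an effect. At 2376 loci the effect passed the test on day 7 and not on day 3, and the median effect went from 0.09 to 1.03 at the 1039 loci with a higher difference and from -0.09 to -1.30 at the 1337 with a lower one. Another 40 loci had an effect on day 3 already that was larger in the same direction on day 7. 11 loci lost their day 3 effect, 2 reversed it, and at 61 neither day passed on its own. Without regard to the test of either day, the effect had opposite signs on the 2 days at 409 higher (37.49%) and 540 lower loci (38.6%). The same split seen from day 3 is that 126 loci (0.998%) had an effect at an adjusted p under 0.05 on that day, against 5962 (47.2%) on day 7. Each day was adjusted on its own, and only these 126 loci could enter the lost or reversed class, whose sizes therefore depend on the day 3 test. Of the 126, 40 grew, 11 were lost, 2 reversed and 73 had no difference at an adjusted p under 0.05. All 73 had the same sign on day 7, and 65 of them also passed the test there. Named after their values were seen, they include NFE2L2, which encodes NRF2 itself (0.67 on day 3 and 0.36 on day 7), the vasodilator peptide gene ADM (1.40 and 1.79) and the monocyte chemokine gene CCL7 (4.12 and 4.37).

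**Figure D1:**
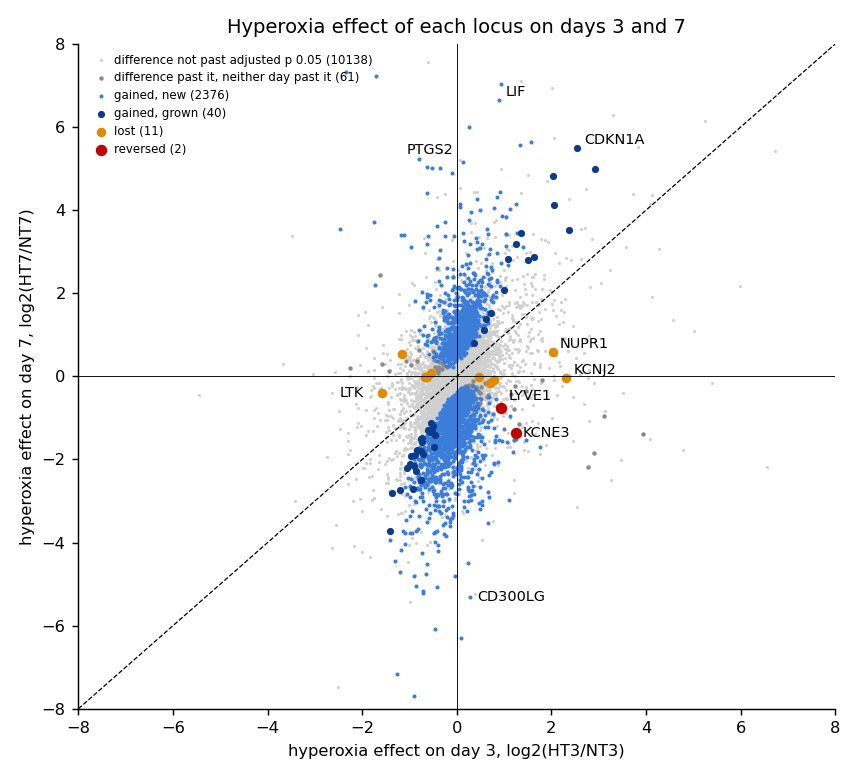
Hyperoxia effect of each tested locus on day 3 (x axis, log2 of HT3 over NT3) and day 7 (y axis, log2 of HT7 over NT7), coloured by class. The 2376 newly gained loci run along the vertical axis, the 11 lost loci lie nearer the horizontal axis, and the 2 reversed loci lie at the lower right. 7 loci outside the plotted range are not shown.

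The counts of called loci depended on single libraries. They ran from 101 without HT7 replicate 3 to 396 without HT7 replicate 2, a library that stood between the normoxia and the other HT7 libraries. On the first principal component over all tested loci, which held 62.6% of the variance of the 12 libraries, its score was 46.5, against 80.4 and 75.1 for HT7 replicates 1 and 3 and -32.9 to -17.0 for the normoxia libraries. Counts more than 1.5 times below 191 were also found without HT3 replicate 2 (124), HT7 replicate 1 (111), NT3 replicates 1 (123), 2 (103) or 3 (108) and NT7 replicate 2 (103). 186 of the 191 called loci were also called without HT7 replicate 2. The small classes moved as well, from 3 lost effects without HT3 replicate 2 or NT3 replicate 2 to 20 without HT7 replicate 2 and from 0 reversed effects without HT3 replicate 1 or 2 or any 1 of the NT3 libraries to 4 without HT3 replicate 3, and DESeq2 gave 38 lost and 9 reversed effects. HT3 replicate 2 had the highest score on the second component (37.2, against 15.7 and 12.8 in the other HT3 libraries), and it also held the highest levels of skeletal muscle transcripts, which are given last.

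The change from day 3 to day 7 was larger in hyperoxia than in normoxia at nearly all of these loci. Of the 1091 loci with a higher difference, 1069 changed more from HT3 to HT7 than from NT3 to NT7, and so did 1375 of the 1399 with a lower one. The difference is also the hyperoxia change minus the normoxia change, so choosing loci by it can raise this share by itself. The share over all loci was not counted. Their median change was 0.95 and -1.22 in hyperoxia, and 0.01 and -0.04 in normoxia. Between NT3 and NT7, 0 loci (0.0%) reached an adjusted p under 0.05 with edgeR, against 36 with DESeq2, while 802 (6.35%) had an unadjusted p under 0.05. Between HT3 and HT7, 5554 loci (44.0%) passed. Transcripts called lower had a median of 64.1 CPM in normoxia and 10.1 CPM in HT7 among the 133 called loci. Those called higher had a median of 5.38 CPM in normoxia and 44.4 CPM in HT7. Over all tested loci the medians were 31.7 CPM in normoxia and 32.1 CPM in HT7. As the calls use the HT7 levels, a gap between normoxia and HT7 follows in part from the choice of loci.

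**Figure D2:**
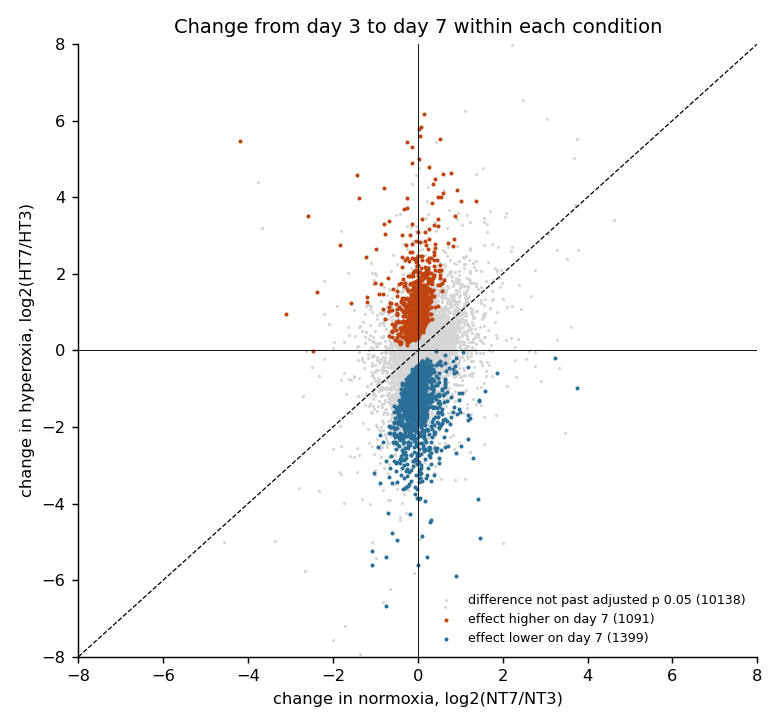
Change from day 3 to day 7 in normoxia (x axis, log2 of NT7 over NT3) and in hyperoxia (y axis, log2 of HT7 over HT3) for each tested locus, with the 2490 loci whose hyperoxia effect differed at an adjusted p under 0.05 in colour. The coloured loci spread along the vertical axis, with a median change of 0.95 for the higher and -1.22 for the lower ones in hyperoxia.

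The libraries of day 5 did not enter the difference. On that day, the median effect was 0.73 at the loci with a higher difference and -0.80 at those with a lower one, between their medians of day 3 (0.09 and -0.08) and day 7 (1.02 and -1.29). The day 5 effect lay between those of the other days at 90.1% of the higher and 92.64% of the lower loci, against 53.65% of all loci. A wide gap between days 3 and 7, by which these loci were chosen, raises this share by itself. Tested directly, the effect of day 5 differed from that of day 3 at 161 loci (1.27%) with edgeR and at 823 with DESeq2. That of day 7 differed from day 5 at 0 loci (0.0%) with edgeR, where 1078 (8.54%) had an unadjusted p under 0.05, and at 28 with DESeq2. HT5 has 2 libraries, and all groups share 1 estimate of the spread.

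2 potassium channel genes had the smallest p-values among the loci that lost or reversed their effect. KCNJ2, which encodes an inward rectifier channel that holds the resting potential of vascular and muscle cells (chr19:53916674-53923901, as listed for build OryCun2.0), was at 10.7, 11.8 and 12.6 CPM in NT3 and at 60, 72.1 and 41.7 CPM in HT3. On day 7 it was at 22.6, 17.7 and 23.6 CPM in NT7 and 15.4, 27.6 and 19.2 CPM in HT7. The groups were apart on day 3 and overlapped on day 7, and the effects on days 3, 5 and 7 were 2.31, 0.71 and -0.04 (difference -2.35, SE 0.32, adjusted p = 0.00075). KCNJ2 was called among the 133 lower loci, and it remained in the class of lost effects in all 12 fits without 1 library.

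KCNE3 (chr1:142139696-142149491), named from its human homolog, encodes a beta subunit that changes the gating of potassium channels. Its level was 5.65, 3.79 and 3.9 CPM in NT3 and 11.8, 12 and 7.88 CPM in HT3, so that hyperoxia stood above normoxia on day 3. On day 7 the order was the opposite, with 8.8, 8.82 and 8.95 CPM in NT7 and 3.85, 3.8 and 2.68 CPM in HT7. The effect went from 1.25 (adjusted p = 0.0341) to -1.36 (adjusted p = 0.000509), a difference of -2.61 (SE 0.35, adjusted p = 0.000657). LYVE1 (chr1:152332847-152347855), a hyaluronan receptor of lymphatic endothelium and of some macrophages, had the same order of groups. It was at 945, 666 and 1040 CPM in NT3, at 1870, 1760 and 1450 CPM in HT3, at 1190, 846 and 1100 CPM in NT7 and at 619, 622 and 596 CPM in HT7. No library overlapped between the conditions on either day, and the effect went from 0.94 to -0.77 (difference -1.71, SE 0.29, adjusted p = 0.00196). For both genes the difference itself stayed at an adjusted p under 0.05 in all 12 fits without 1 library, with a highest value of 0.00347 for KCNE3 and 0.00684 for LYVE1. The day 3 effect did not, with highest adjusted p-values of 0.17 and 0.196, and the genes stayed in the reversed class in 7 and 2 of those fits. When same-numbered replicates of a day were fitted as a block, the day 3 effects had adjusted p-values of 0.0766 (KCNE3) and 0.0757 (LYVE1). Neither gene counted as reversed in that fit.

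The other lost effects were smaller. The locus that carries EMILIN1, KHK, CAD and ATRAID, whose counts cannot be divided between these genes, was at 544, 497 and 510 CPM in NT3 and 337, 315 and 323 CPM in HT3. It was at 350, 377 and 421 CPM in NT7 and 399, 371 and 360 CPM in HT7 (difference 0.65, SE 0.13, adjusted p = 0.00395). The groups were apart on day 3 and overlapped on day 7. The normoxia level went from a mean of 517 to 383 CPM between the days and the hyperoxia level from 325 to 377 CPM, whereas at KCNJ2 the larger change was in hyperoxia. LTK, a receptor tyrosine kinase, went from an effect of -1.58 to -0.40 (difference 1.18, SE 0.32, adjusted p = 0.0186), and the matrix protein gene THBS2 from -1.15 to 0.54 (difference 1.69, SE 0.36, adjusted p = 0.00637). PHACTR1, a regulator of actin and phosphatase activity, went from 0.78 to -0.08 (difference -0.86, SE 0.19, adjusted p = 0.00791), and ATP6V0A1, a subunit of the proton pump of lysosomes, from 0.70 to -0.16 (difference -0.85, SE 0.21, adjusted p = 0.0126). The remaining 5 of the 11, named after their values were seen, were NUPR1, a stress-induced transcriptional regulator (2.03 to 0.58), SREK1, CAPN5, NES and PLD2. The EMILIN1 locus, KCNJ2 and LTK stayed in the class in all 12 fits without 1 library, and the other 8 in 1 to 9 of them.

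**Figure D3:**
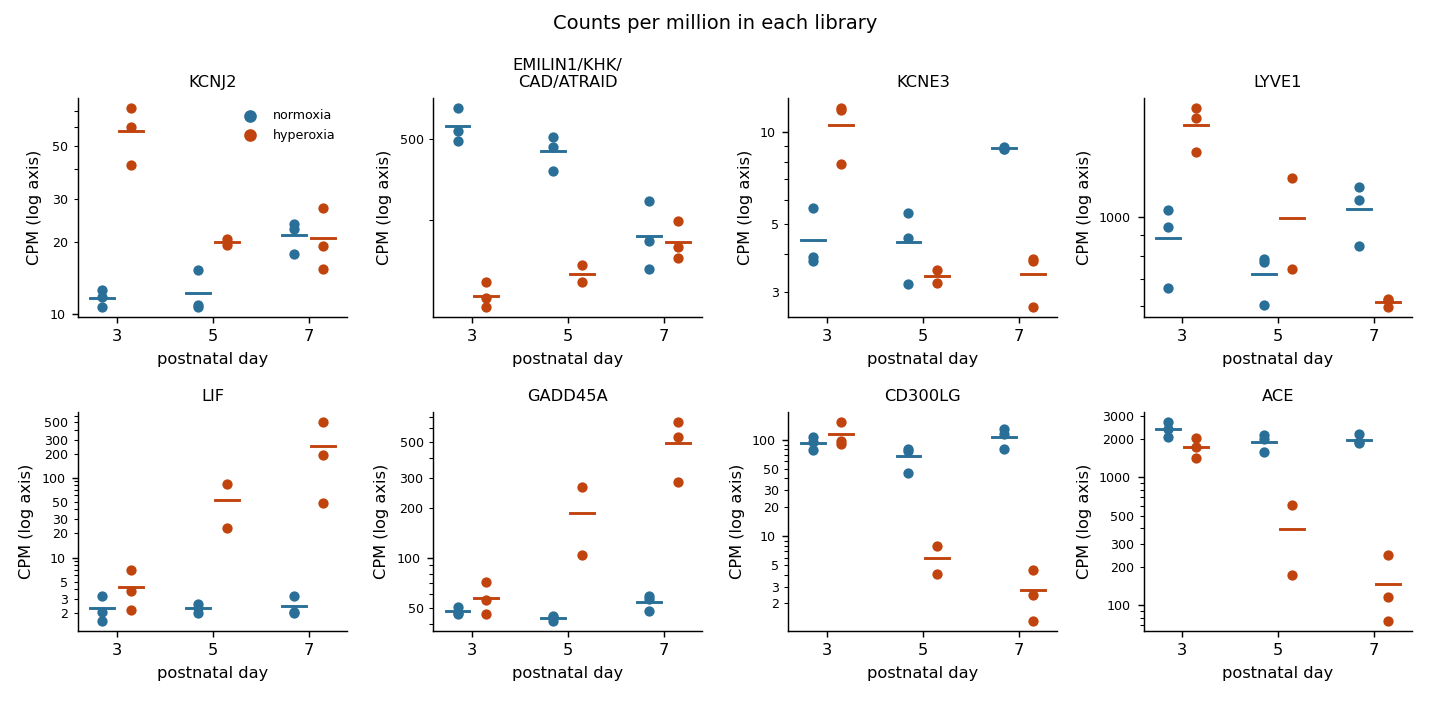
CPM on a log axis in each library of normoxia and hyperoxia on days 3, 5 and 7, with group means as bars, for loci whose effect was lost (KCNJ2, EMILIN1 locus), reversed (KCNE3, LYVE1) or gained upward (LIF, GADD45A) or downward (CD300LG, ACE). For KCNE3 and LYVE1 the conditions exchange places between days 3 and 7.

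The next loci were chosen among called loci with a mean log2 CPM of at least 1 and all HT7 libraries on 1 side of NT7. The highest differences among them were those of LIF and ADAMTS4, followed by PTGS2. LIF, an interleukin 6 family cytokine, was at 3.81, 2.21 and 6.97 CPM in HT3 and 1.61, 2.06 and 3.33 CPM in NT3. On day 7 it was at 500, 48 and 192 CPM in HT7 and 3.34, 2.08 and 2 CPM in NT7 (difference 5.75, SE 1.08, adjusted p = 0.00338). The conditions overlapped on day 3. On day 7 they were apart, as the choice required, with HT7 replicate 2 the lowest of the hyperoxia libraries. ADAMTS4, a protease that cuts aggrecan and versican, was at 358, 25 and 104 CPM in HT7 and 3.64, 1.48 and 2.48 CPM in NT7, and between 1.95 and 3.55 CPM in all day 3 libraries (difference 5.75, SE 1.10, adjusted p = 0.00372). PTGS2, the inducible cyclooxygenase, was at 12.5, 16.2 and 34.8 CPM in HT3, 1010, 112 and 766 CPM in HT7 and 23.2, 13.6 and 16.1 CPM in NT7 (difference 5.02, SE 0.93, adjusted p = 0.00309). FOSL1, an AP-1 subunit (3.51, adjusted p = 0.00309), TNFRSF12A, the receptor of TWEAK (3.10, adjusted p = 0.00144), and GADD45G, a stress-induced growth arrest gene (3.33, adjusted p = 0.00156), rose as well. Further differences were those of the axon guidance protein gene NAV3 (3.99), the adhesion protein IGSF9B (3.97), the secreted protein COCH (3.52), the histone gene H2AC19 (3.38), the microtubule-binding kinase DCLK2 (3.02) and a ribonuclease locus named RNASE8 from its human homolog (4.24). Members of the ribonuclease and histone families can share reads with near copies, so the last and H2AC19 are uncertain. All 12 stayed at an adjusted p under 0.05 in every fit without 1 library.

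By the same choice, the lowest differences included those of CD300LG and CYP1A1. CD300LG, a glycoprotein of capillary endothelium (chr19:44263125-44276609), was at 109, 79.1 and 94.7 CPM in NT3, 98.1, 155 and 90.6 CPM in HT3 and 80.6, 130 and 115 CPM in NT7. In HT7 it was at 1.32, 4.46 and 2.46 CPM, below every other library of these groups (difference -5.59, SE 0.51, adjusted p = 0.000104). CYP1A1, the aryl hydrocarbon receptor target that oxidizes xenobiotics, was at 1420, 871 and 976 CPM in HT3, 12.2, 62.4 and 77.8 CPM in HT7 and 1310, 933 and 1170 CPM in NT7 (difference -4.72, SE 0.73, adjusted p = 0.00144). SLC6A4, the serotonin transporter that lung endothelium uses to clear serotonin, was at 213, 256 and 191 CPM in HT3, 13.8, 33.9 and 30.9 CPM in HT7 and 179, 280 and 239 CPM in NT7 (difference -3.30, SE 0.41, adjusted p = 0.000424). None of the 3 had a day 3 effect that passed the test. On day 7 HT7 lay below NT7 in every library, which the choice of these loci required. ENPP2, which makes lysophosphatidic acid (-3.36, adjusted p = 0.00929), ERBB4, a neuregulin receptor (-3.61, adjusted p = 0.00113), and ADRA1B, an adrenergic receptor (-3.45, adjusted p = 0.00165), fell likewise. So did KCNH6 (-4.17), the secreted protein gene CCDC3 (-3.71), LUZP2 (-3.66), CYP4X1 (-3.57) and a locus whose human homolog is HSPB2-C11orf52 (-3.47). These loci stayed at an adjusted p under 0.05 in every fit without 1 library.

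**Figure D4:**
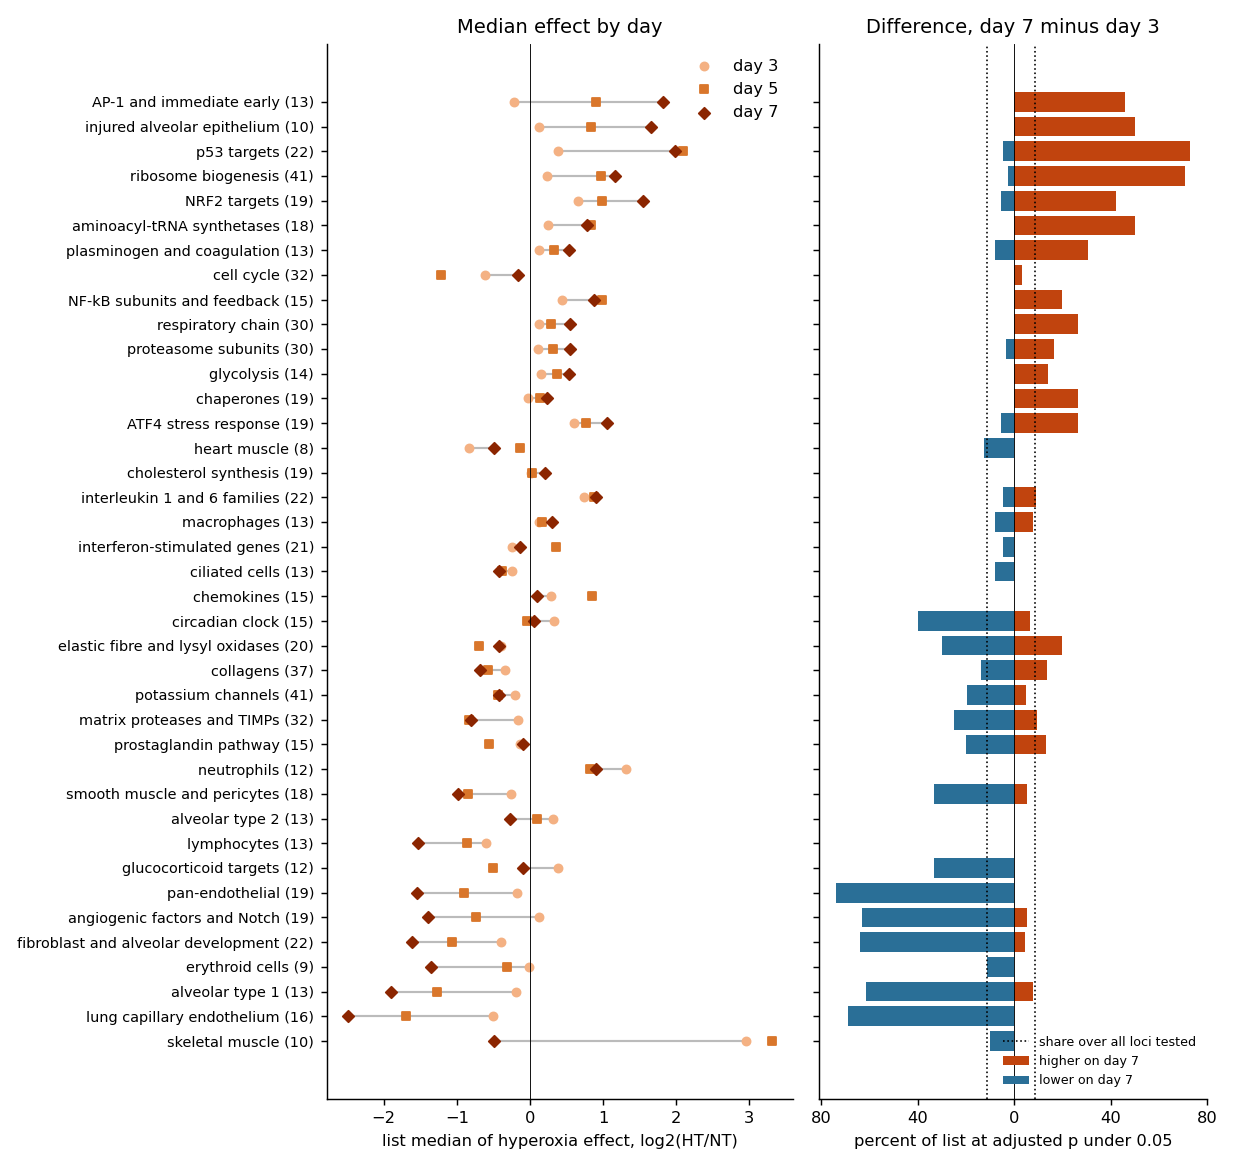
For 39 gene lists with the number of loci tested, the median hyperoxia effect on days 3, 5 and 7 (left, log2 of HT over NT) and the percent of loci whose effect was higher or lower on day 7 at an adjusted p under 0.05 (right; dotted lines give the shares over all tested loci, 8.64% and 11.1%). The bars are longest for p53 targets, of which 16 of 22 rose, and pan-endothelial genes, of which 14 of 19 fell, and 5 lists have no member past the test.

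39 lists of genes by pathway or cell type were read for how many members changed, against the 8.64% and 11.1% of all loci that rose and fell. Members beyond the naming rule of the methods, given to name a count of 5 or fewer, were chosen after their values were seen. Counts are followed by their range over the fits that left out 1 library, each end with 1 library that gave it, where that range passed 1.5 times a count of 2 or more in either direction. Counts of 0 or 1 could also change when 1 library was left out, and their ranges are given only where they reached 3 or more.

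Among the stress programmes, p53 targets had the highest share of members that rose. Of 22 tested, 16 rose and 1 fell, and the median effects of the list on days 3, 5 and 7 were 0.39, 2.10 and 1.98. CDKN1A, the cell cycle inhibitor p21, named from its human homolog, was at 18.2, 25.1 and 25.5 CPM in NT3 and 117, 108 and 175 CPM in HT3. On day 7 it was at 26.6, 29 and 39.8 CPM in NT7 and 1110, 1170 and 2040 CPM in HT7 (difference 2.96, SE 0.46, adjusted p = 0.00144), so an effect that was present on day 3 grew. GADD45A, a DNA damage and stress gene, was at 55.4, 45.5 and 71.1 CPM in HT3 and 658, 287 and 532 CPM in HT7, against 47.7, 58.6 and 56.1 CPM in NT7 (difference 2.92, SE 0.44, adjusted p = 0.00121). EDA2R, a death receptor (2.79, adjusted p = 0.000546), SESN2 (2.08, adjusted p = 0.00511) and the locus of AEN and ISG20 (2.08, adjusted p = 0.0021) also had an effect on day 3 that grew, whereas BAX, a pore-forming promoter of apoptosis (1.29, adjusted p = 0.00221), and PLK3 (2.89, adjusted p = 0.00736) gained theirs. SESN1 was the member that fell (-0.98, adjusted p = 0.00882). Between 13 and 16 members rose when each library was left out.

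NRF2 targets had a positive median effect on day 3 already. 8 of 19 rose and 1 fell, with a list median of 0.66 on day 3 and 1.54 on day 7. TXNRD1, thioredoxin reductase, was at 83.9, 68.5 and 83.8 CPM in NT3, 168, 176 and 158 in HT3, 86, 72.4 and 85.6 in NT7 and 579, 421 and 719 CPM in HT7 (difference 1.73, SE 0.31, adjusted p = 0.00246). GCLC and GCLM, the subunits of the enzyme that starts glutathione synthesis, differed by 1.26 (adjusted p = 0.0147) and 1.30 (adjusted p = 0.0351), and the drug exporter ABCC1 by 1.84 (adjusted p = 0.00428). The ferritin light chain gene FTL rose (adjusted p = 0.0302, under 0.05 in 4 of 12 fits without 1 library), while the heavy chain gene FTH1 had 0.69 on day 3 and 1.45 on day 7 (0.76, adjusted p = 0.244). The cystine carrier gene SLC7A11, the glutathione reductase gene GSR and the sulfiredoxin gene SRXN1 also rose, and the locus shared by SRP9 and EPHX1 fell. The count that rose ran from 3 without NT7 replicate 2 to 9 without HT7 replicate 2.

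ATF4 targets, which serve amino acid supply under stress, had 5 of 19 members that rose, and NUPR1 was the 1 that fell. The count that rose ran from 2 without HT3 replicate 2 to 5 without HT7 replicate 2. The hormone gene STC2 (2.60, adjusted p = 0.00273), the cystathionine lyase gene CTH (1.72, adjusted p = 0.0176) and the mitochondrial serine enzyme gene SHMT2 (1.11, adjusted p = 0.0195, under 0.05 in 10 of 12 fits without 1 library) rose, with ASNS and CEBPB. SLC3A2 had 0.75 on day 3 and 1.49 on day 7, and its difference missed the threshold (0.74, adjusted p = 0.0796). In the AP-1 and immediate early list, 6 of 13 rose and none fell, with a median of -0.22 on day 3 and 1.82 on day 7. EGR3 was at 0.263, 0.246 and 0.968 CPM in HT3, 8.7, 4.33 and 15.3 CPM in HT7 and 0.152, 0.519 and 0.62 CPM in NT7 (difference 5.04, SE 1.06, adjusted p = 0.00602), so that HT7 lay above every library of the other groups named. NR4A2, a nuclear receptor of the early response, rose as well (2.16, adjusted p = 0.018), while JUN, the AP-1 subunit, had -0.64 on day 3 and -0.43 on day 7 (0.21, adjusted p = 0.656). The list count ran from 3 without HT7 replicate 1 to 9 without HT7 replicate 2.

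Among inflammatory genes, 0 of 15 chemokine, 1 of 21 interferon-stimulated and 3 of 15 NF-kB genes passed, where 19.7% of all loci did in either direction. Of 22 genes of the interleukin 1 and 6 families, LIF and the alarmin gene IL33 rose (1.42, adjusted p = 0.00629) and the LIF receptor gene LIFR fell (-2.11, adjusted p = 0.00215). LIFR was at 351, 581 and 348 CPM in NT7 and 113, 124 and 79.1 CPM in HT7, against 427, 702 and 330 CPM in HT3. The shared receptor subunit gene IL6ST had an effect of 0.71 on day 3 and 0.75 on day 7 (0.03, adjusted p = 0.934). CXCL8, the neutrophil attractant, had effects of 2.86 and 3.31 with a wide spread, at 27.7, 48.2 and 307 CPM in HT3 and 462, 270 and 373 CPM in HT7 (difference 0.45, SE 1.26, adjusted p = 0.834). The interferon-stimulated gene past the test was CMPK2, and it fell (-1.15, adjusted p = 0.0109), while 4 fell without HT7 replicate 2. Among 15 NF-kB genes, BIRC3 (2.89, adjusted p = 0.0316, under 0.05 in 5 of 12 fits without 1 library), NFKBIE (1.79, adjusted p = 0.0463, 3 of 12) and NFKB1 (0.54, adjusted p = 0.0319, 4 of 12) rose. That count ran from 0 without HT3 replicate 1 to 4 without HT3 replicate 3.

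In the prostaglandin pathway, 2 of 15 genes rose and 3 fell. PTGS2 and the locus of PTGES2 and FAM102A rose, and HPGD, the enzyme that inactivates prostaglandins (-2.49, adjusted p = 0.0132), the uptake carrier SLCO2A1 (-1.41, adjusted p = 0.00453) and the receptor gene PTGER3 (-1.77, adjusted p = 0.0028) fell. SLCO2A1 was at 732, 976 and 751 CPM in HT3, 345, 387 and 289 CPM in HT7 and 1210, 755 and 937 CPM in NT7, with no overlap on day 7. The count that rose in this list ran from 1 without HT3 replicate 1 to 4 without HT7 replicate 2. In the plasminogen and coagulation list, 4 of 13 rose and 1 fell. F3, tissue factor, was at 218, 212 and 265 CPM in HT3, 1290, 864 and 804 CPM in HT7 and 205, 154 and 216 CPM in NT7 (difference 2.14, SE 0.36, adjusted p = 0.00204). The urokinase receptor gene PLAUR and the protease receptor gene F2RL1 also rose. The anticoagulant cofactor gene PROS1 fell (-2.34, adjusted p = 0.00175), and TFPI, the tissue factor inhibitor gene, did not pass (-0.40, adjusted p = 0.437).

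29 of 41 ribosome biogenesis factors rose, with median effects on days 3, 5 and 7 of 0.23, 0.97 and 1.17, and none of them was past the stricter thresholds. UTP20, a factor of the small subunit processome, was at 73.1, 88.7 and 94.3 CPM in HT3, 212, 189 and 270 CPM in HT7 and 68.9, 64.8 and 68.2 CPM in NT7 (difference 1.37, SE 0.20, adjusted p = 0.000906). MYBBP1A, a nucleolar protein that binds the transcription factor MYB, was at 627, 326 and 517 CPM in HT7 and 142, 129 and 143 CPM in NT7 (difference 1.68, SE 0.29, adjusted p = 0.0021). The 1 locus that fell carries both PES1 and SEC14L3, whose reads cannot be separated. Nucleolin, NCL, had 0.23 on day 3 and 0.60 on day 7 and its difference missed the threshold (0.37, adjusted p = 0.118). Of 18 aminoacyl-tRNA synthetases, which charge tRNAs, 9 rose and none fell (4 without HT3 replicate 2 to 12 without HT7 replicate 2), among them IARS1 (0.85, adjusted p = 0.00344), GARS1 (0.78, adjusted p = 0.0137) and the locus of VARS1 and VWA7 (1.93, adjusted p = 0.00133).

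Of the genes of protein quality control, 5 of 30 proteasome subunits rose (2 without NT7 replicate 2 to 14 without HT7 replicate 2), PSMD14 (1.42, adjusted p = 0.00172), PSMA1 (under 0.05 in 11 of 12 fits without 1 library), PSMA2 (10 of 12), PSMB4 and PSMC6, and the locus of PSME3, AOC2 and AOC3 fell (6 of 12). 5 of 19 chaperones rose (3 without HT3 replicate 2 to 6 without HT7 replicate 2), the mitochondrial HSPD1 (1.17, adjusted p = 0.00179), HYOU1 of the endoplasmic reticulum (0.84, adjusted p = 0.00427), HSPA8, HSP90AA1 and HSPH1, whereas HSP90B1 of the same compartment had -0.02 and -0.01 on the 2 days (0.01, adjusted p = 0.973). 8 of 30 nuclear-encoded respiratory chain subunits rose (1 without NT7 replicate 2 to 12 without HT7 replicate 2), including NDUFB8 (0.72, adjusted p = 0.0117). In glycolysis, HK1 (0.77, adjusted p = 0.021, under 0.05 in 8 of 12 fits without 1 library) and PFKP (1.72, adjusted p = 0.0177) rose of 14 genes (1 without HT3 replicate 1 to 4 without HT7 replicate 2). 0 of 19 cholesterol synthesis genes passed, and 1 of 32 cell cycle genes did, TYMS (1.25, adjusted p = 0.039, 3 of 12 fits). The median effects of the cell cycle list on days 3, 5 and 7 were -0.62, -1.22 and -0.16, which were all below 0. The count for that list ran from 0 without HT3 replicate 2 to 7 without NT7 replicate 3.

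**Figure D5:**
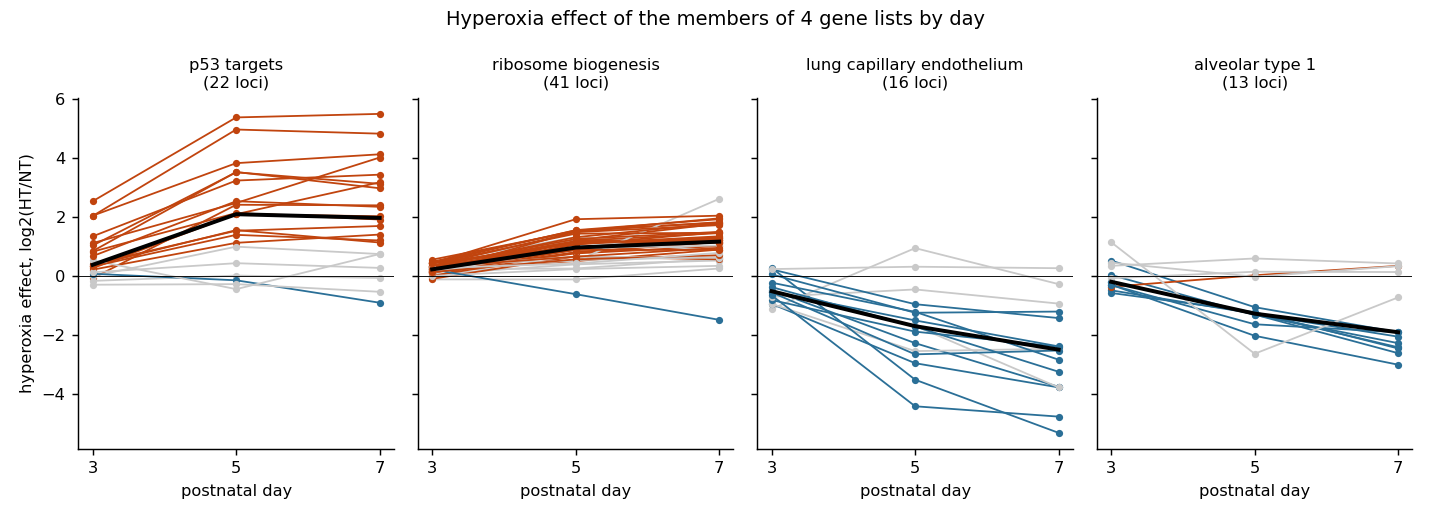
Hyperoxia effect (log2 of HT over NT) of each tested member of 4 lists on days 3, 5 and 7, coloured red or blue where the difference between days 7 and 3 was higher or lower at an adjusted p under 0.05 and grey otherwise, with the list median in black. Medians go from 0.39 to 1.98 for p53 targets, 0.23 to 1.17 for ribosome biogenesis, -0.51 to -2.49 for capillary endothelium and -0.19 to -1.90 for alveolar type 1 genes.

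Endothelial transcripts gained a negative effect. Of 16 lung capillary genes, 11 fell and none rose, and the median effects on days 3, 5 and 7 were -0.51, -1.69 and -2.49. Their summed level was 5048 to 5821 CPM in NT3, 3249 to 4388 in HT3, 4420 to 4785 in NT7 and 781.2 to 998.4 CPM in HT7. ACE, angiotensin-converting enzyme of the capillary surface, was at 2050, 2390 and 2710 CPM in NT3 and 1720, 2040 and 1420 CPM in HT3. On day 7 it was at 2160, 1900 and 1850 CPM in NT7 and 75.7, 246 and 117 CPM in HT7 (difference -3.29, SE 0.58, adjusted p = 0.00235). RAMP2, the partner of the adrenomedullin receptor, was at 361, 464 and 378 CPM in HT3, 96.1, 121 and 93.4 CPM in HT7 and 549, 530 and 536 CPM in NT7 (difference -1.86, SE 0.21, adjusted p = 0.000231). The apelin receptor gene APLNR (-2.84, adjusted p = 0.0013), SOSTDC1 (-2.61, adjusted p = 0.000311) and PRX (-2.87, adjusted p = 0.000651) fell with them.

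Of 19 pan-endothelial genes, 14 fell and none rose (12 to 14 when each library was left out), with a median effect of -0.18 on day 3 and -1.55 on day 7. TEK, the angiopoietin receptor, was at 468, 437 and 505 CPM in NT3 and 498, 400 and 481 CPM in HT3, and at 485, 473 and 447 CPM in NT7 and 53, 92 and 56.8 CPM in HT7 (difference -2.77, SE 0.29, adjusted p = 0.000231). TIE1, its partner, had an effect of -0.87 on day 3 that grew to -2.27 (difference -1.40, SE 0.17, adjusted p = 0.000443). The phosphatase gene PTPRB, which restrains TEK (-3.06, adjusted p = 0.000584), the junction gene CDH5 (-1.48, adjusted p = 0.000459) and CLEC14A (-3.01, adjusted p = 0.000357) fell. PECAM1, another defining gene of the endothelium, did not pass, at 664, 643 and 583 CPM in NT7 and 852, 368 and 589 CPM in HT7 (difference -0.38, SE 0.31, adjusted p = 0.413). The differences of the 19 genes ran from -3.06 to 0.22. 12 of 19 angiogenic and Notch genes fell and 1 rose. VEGFA was at 1410, 1290 and 1080 CPM in HT3, 303, 368 and 260 CPM in HT7 and 1250, 1530 and 1520 CPM in NT7 (difference -1.71, SE 0.30, adjusted p = 0.00248), and the TEK ligand gene ANGPT1 (-2.56, adjusted p = 0.000496) and the Notch ligand gene DLL4 (-2.98, adjusted p = 0.00108) fell. ANGPT2, the antagonist of ANGPT1, was the 1 that rose, from an effect of 2.38 to 3.52 (1.14, adjusted p = 0.0144), after 4.23 on day 5.

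In the alveolar epithelium, 8 of 13 type 1 genes fell, and GPRC5A rose, which it did in 2 of 12 fits without 1 library. CAV1, the caveolar coat protein that endothelium also makes, was at 1500, 1470 and 1330 CPM in HT3, 285, 504 and 362 CPM in HT7 and 1730, 2180 and 2190 CPM in NT7 (difference -1.92, SE 0.31, adjusted p = 0.00165). EMP2 (-2.42, adjusted p = 0.00172) and CYP4B1 (-2.42, adjusted p = 0.000355) fell too, as did the locus of AGER and PBX2, which was at 4980, 4420 and 3540 CPM in HT3 and 1030, 1540 and 730 CPM in HT7 (difference -1.86, SE 0.39, adjusted p = 0.00599). The summed level of the list was 9064 to 11950 CPM in HT3, 3897 to 4817 CPM in HT7 and 10500 to 12000 CPM in NT7. 5 of 10 injured epithelium genes rose and none fell. KRT7, a keratin of simple epithelium, was at 232, 184 and 264 CPM in HT3, 988, 455 and 567 CPM in HT7 and 283, 234 and 228 CPM in NT7 (difference 1.64, SE 0.31, adjusted p = 0.00348). CLDN4 (2.23, adjusted p = 0.00667) and the lectin gene LGALS3 (1.18, adjusted p = 0.00599) rose with TNFRSF12A and S100A6, the last under 0.05 in 4 of 12 fits without 1 library.

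0 of 13 type 2 genes passed with all libraries. SFTPC, a surfactant protein gene, was at 13200, 9970 and 8730 CPM in NT7 and 4770, 13200 and 5700 CPM in HT7 (difference -0.55, SE 0.55, adjusted p = 0.507), and SFTPA1 had an effect of 1.08 on day 3 and 1.15 on day 7 (0.07, adjusted p = 0.941). HT7 replicate 2 had the highest SFTPC level of the HT7 libraries, and the summed type 2 level of HT7 ran from 15640 to 34030 CPM. Without this replicate, 4 of the 13 type 2 genes fell. The part of this library's type 2 level in the counts of other lists was not tested. The locus of SFTPB cannot be separated from TMEM150A. Of 13 ciliated cell genes, 1 fell, at a locus that TPPP3 shares with ZDHHC1, while CFAP43, DNAI1 and HYDIN did not pass.

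Mesenchymal and matrix genes split. In the list of fibroblast and alveolar development genes, 14 of 22 fell and 1 rose, with a median effect of -0.39 on day 3 and -1.62 on day 7. NPNT, a ligand of integrin alpha 8 in the alveolar matrix, was at 1320, 1250 and 941 CPM in HT3, 84.7, 263 and 105 CPM in HT7 and 1790, 1840 and 1590 CPM in NT7 (difference -3.27, SE 0.48, adjusted p = 0.00108). The mesenchymal transcription factor FOXF1 (-1.32, adjusted p = 0.00129) and the signal WNT5A (-1.24, adjusted p = 0.00153) fell, and the epithelial growth factor gene FGF7 rose (1.92, adjusted p = 0.00792). HHIP had -0.63 on day 7 and did not pass (-0.64, adjusted p = 0.441). Of 18 smooth muscle and pericyte genes 6 fell (3 without NT7 replicate 2) and the potassium channel subunit gene ABCC9 rose. The pericyte gene COX4I2 was at 50.4, 44.4 and 46.5 CPM in HT3, 8.2, 9.53 and 7.37 CPM in HT7 and 46, 49.8 and 47.3 CPM in NT7 (difference -2.06, SE 0.19, adjusted p = 0.000104), and the cation channel gene TRPC6 fell (-1.90, adjusted p = 0.00144). The smooth muscle myosin gene MYH11 had -0.51 on day 3 and -1.01 on day 7 (-0.50, adjusted p = 0.205).

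Of 37 collagen genes, 5 rose (3 without HT3 replicate 1 to 5 without HT7 replicate 2) and 5 fell. COL23A1 (-2.84, adjusted p = 0.00149) and COL4A3, a chain of the alveolar basement membrane (-1.86, adjusted p = 0.00172), fell with COL4A4, COL9A2 and COL13A1. COL5A3 rose (2.11, adjusted p = 0.00858), as did COL6A6, COL8A1, COL12A1 and COL18A1. COL3A1 (0.08, adjusted p = 0.868) and COL4A1 (-0.05, adjusted p = 0.915), which had the highest counts, did not pass. Without HT7 replicate 2, 12 collagen genes fell. Of 20 elastic fibre genes, 6 fell (3 without NT7 replicate 2) and 4 rose (2 without HT3 replicate 1 to 4 without HT3 replicate 3), FBN1, FBLN1, LOXL4 and the EMILIN1 locus given above. MFAP4 was at 1070, 878 and 971 CPM in HT3, 269, 411 and 269 CPM in HT7 and 1280, 1260 and 1170 CPM in NT7 (difference -1.48, SE 0.25, adjusted p = 0.00203), and FBLN5 (-1.13, adjusted p = 0.00367) and LTBP3 (-1.06, adjusted p = 0.00372) fell, as did ELN, elastin itself (-0.77, adjusted p = 0.0301, under 0.05 in 6 of 12 fits without 1 library). Of 32 proteases and inhibitors, 8 fell (5 without HT7 replicate 1 to 13 without HT7 replicate 2) and 3 rose (1 without HT3 replicate 1 to 3 without NT7 replicate 1). TIMP3, an inhibitor that stays in the matrix, fell (-1.31, adjusted p = 0.00248), and TIMP1, a soluble one, rose (2.28, adjusted p = 0.0217). ADAMTS7 fell (-1.39, adjusted p = 0.00263), ADAMTS4 and ADAMTS14 rose, and MMP2 did not pass (0.21, adjusted p = 0.491).

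The potassium channel list held loci with a gained, a lost and a reversed effect. Of 41 tested, 8 fell and 2 rose (1 without HT3 replicate 2 to 4 without HT7 replicate 2), and 6 of the 41 fell past the stricter thresholds, against 1.05% of all loci. KCNJ2 lost its effect and KCNE3 reversed it, as given above. KCNK3, an acid- and oxygen-sensitive leak channel of pulmonary arteries, fell (-2.36, adjusted p = 0.00861). KCNA4 (-3.22, adjusted p = 0.00286) was low, between 0.126 and 0.391 CPM in HT7. KCNJ15, another inward rectifier gene, had an effect of 0.63 on day 3 and 1.08 on day 7 (0.45, adjusted p = 0.607). 6 of 15 clock genes fell and the repressor NFIL3 rose. The output factors TEF, at 108, 89.2 and 79.5 CPM in HT3, 37.6, 45.8 and 40.3 CPM in HT7 and 112, 149 and 143 CPM in NT7 (difference -1.75, SE 0.21, adjusted p = 0.000369), and HLF (-1.45, adjusted p = 0.00162) fell with the repressor NR1D2 (-1.82, adjusted p = 0.00777), while PER1 did not pass (0.01, adjusted p = 0.995). The median of this list turned from -0.21 to 0.03 without HT7 replicate 2. Of 12 glucocorticoid genes, 4 fell, among them the receptor gene NR3C1 at 285, 259 and 262 CPM in HT3, 91.5, 147 and 126 CPM in HT7 and 275, 281 and 276 CPM in NT7 (difference -1.06, SE 0.19, adjusted p = 0.00273), its target TSC22D3 (-1.48, adjusted p = 0.0158) and HSD11B2, which inactivates cortisol (-1.65, adjusted p = 0.0175), with HSD11B1.

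Of the markers of blood and immune cells, 0 of 12 neutrophil genes passed. Their summed level was 393.9 to 957.2 CPM in NT3, 1437 to 2095 in HT3, 1310 to 1451 in NT7 and 1379 to 4077 CPM in HT7, so that the groups were apart on day 3 and overlapped on day 7, and S100A9 had 1.62 on day 3 and 0.92 on day 7 (-0.70, adjusted p = 0.542). Of 13 macrophage genes, the receptor gene MARCO fell (-2.26, adjusted p = 0.0401, under 0.05 in 3 of 12 fits without 1 library) and a locus that CD68 shares with EIF4A1 and others rose (8 of 12 fits), and 3 fell without HT7 replicate 2. 0 of 13 lymphocyte genes passed, with a median difference of -0.90, 1 of 13 differences above 0 and sums of 52.8 to 57.39 CPM in HT7 and 78.67 to 92.87 CPM in NT7. Of 9 erythroid genes, ALAS2, the first enzyme of erythroid heme synthesis, fell (-1.76, adjusted p = 0.0114), and the count ran from 1 without HT3 replicate 1 to 3 without NT3 replicate 3. The differences of the 9 ran from -1.76 to -0.61 with a median of -1.50, and their summed level was 143.6 to 229.3 CPM in HT3, 119.4 to 250.3 in NT3, 72.61 to 93.75 in HT7 and 155.5 to 288.4 CPM in NT7.

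The summed level of 10 skeletal muscle genes was 100 to 542.3 CPM in HT3, 124.6 to 128 in NT3, 75.98 to 86.59 in HT7 and 110.8 to 130.9 CPM in NT7, and the highest value was that of HT3 replicate 2. ACTA1 was at 2.63, 149 and 18.7 CPM in HT3 and 2.86, 2.51 and 1.82 CPM in NT3 (difference -3.21, SE 1.92, adjusted p = 0.252), and MYH8 was at 1.18, 123 and 16.8 CPM in HT3 and 2.11, 1.45 and 1.51 CPM in NT3. TNNT3 was the 1 muscle gene past the test (difference -4.95, SE 1.61, adjusted p = 0.0432), in 3 of 12 fits without 1 library and not without HT3 replicate 2. The list median of -2.72 became -0.62 without that library. Of 8 heart genes, the calcium release channel gene RYR2 fell (-1.98, adjusted p = 0.00686).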

How the data were processed

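Strand-specific polyA RNA-seq libraries were made by the study from homogenized right lung. The authors deposited raw counts per locus, whose reads were mapped with STAR 2.7.10a to build OryCun2.0 per the submitters' processing notes, which also name FastQC. The program that made the counts and its strand setting are not given in the sources used here. The 13827 table entries were reduced to 13313 loci, since a locus with several genes repeats its counts on each, and 434 loci carry several genes. Genes without a name took that of the human homolog (2557 loci).

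The 17 libraries held 13123731 to 18111086 counts over loci. A negative binomial model with 1 mean per group was fitted to all 17 with edgeR 4.0.16 in R 4.3.3 (filterByExpr, TMM scaling, prior count 0.125, quasi-likelihood F test, Benjamini-Hochberg adjustment). 685 loci were filtered out. The thresholds were an adjusted p under 0.01 and a log2 difference over 2 for called loci, as in the study, and 0.05 for lists and classes. A locus gained an effect where day 7 passed and day 3 did not, or where both did in the same direction and the effect grew. It lost one where day 3 passed and the effect was smaller and mostly not past the test on day 7, and reversed it where both passed in opposite directions. The fit was also run on simulated counts in which 200 loci were changed in HT7 alone. That run covers gained effects only and not the lost and reversed classes. Alternatives were DESeq2 1.42.0, other scaling, filters and prior counts, a replicate block, every table entry, the 12 libraries alone and each library left out.

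Named genes were the 12 highest and 12 lowest called loci with a mean of at least 1 on the log2 CPM scale and HT7 on 1 side of NT7, the 6 lost and 6 reversed loci of smallest adjusted p at the same level, and for each of 39 lists up to 3 members of smallest p and up to 2 of highest level. The 39 lists hold 943 genes, of which 757 were found. The comparison, its members and the lists were chosen with earlier results of these data known. Positions are as the table lists them. No columns of other samples were found. Some items that the rules name are not reported here.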

Additional observations from a re-analysis of the deposited data

Results flagged for a closer look

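The hyperoxia effects of KCNE3 and LYVE1 had opposite signs on days 3 and 7, each day passing an adjusted p under 0.05, and the difference between the days was itself tested. The difference was -2.61 for KCNE3 (adjusted p = 0.000657, edgeR quasi-likelihood test), with all HT3 libraries above NT3 and all HT7 libraries below NT7. The difference was -1.71 for LYVE1 (adjusted p = 0.00196), with the same order of libraries. Both stayed in the class of reversed effects in 7 (KCNE3) and 2 (LYVE1) of 12 fits without 1 library, since the day 3 effect did not always pass, and neither gene stayed in it under every alternative. With the replicate block, the day 3 effects had adjusted p-values of 0.0766 (KCNE3) and 0.0757 (LYVE1) by the same test, and both genes counted as gained.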

How the results depend on the processing

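With a log2 minimum of 1 in place of 2, 696 loci were called, 221 higher and 475 lower. DESeq2 called 295 loci, 100 of them higher, and put 38 loci in the lost and 9 in the reversed class, and 189 of its called loci were also called by edgeR. Over the 12 fits that left out 1 library each, between 101 and 396 loci were called, 25 to 106 of them higher and 70 to 290 lower, and 1578 to 3578 passed an adjusted p under 0.05. Between 1537 and 3433 loci gained an effect, 3 to 20 lost it and 0 to 4 reversed it. The highest counts of called and gained loci came without HT7 replicate 2. Without that library the median difference of the circadian clock list was 0.03, opposite in sign to the -0.21 of all libraries, and it was -0.59 without HT7 replicate 3. The median of the AP-1 list was 1.23 without HT7 replicate 1, and that of the skeletal muscle list -0.62 without HT3 replicate 2. The causes were not tested.

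Other scaling, the count filter, the prior count, every table entry and the 12 libraries alone gave 185 to 195 called loci, and the median difference over all loci lay between -0.04 and -0.008 in every fit. Of 204 named loci, 125 passed an adjusted p under 0.05, and 104 of these did so under every alternative. Under no alternative was a called difference among the 204 reversed. The groups share replicate numbers in the labels. Deviations from the group means of same-numbered libraries correlated at 0.129 to 0.201 on day 3, 0.14 and 0.265 on day 5 and 0.0677 to 0.172 on day 7. All were positive, and libraries of different numbers were not compared, so these values cannot tell whether the numbers pair the libraries. The main fit did not pair them. With the replicate block, 155 loci were called, 131 of them shared with the fit without it, 2433 passed an adjusted p under 0.05, 5 lost their effect and 0 reversed it. In this fit the day 3 effects of KCNE3 and LYVE1 had adjusted p-values of 0.0766 and 0.0757 (edgeR), so that both genes counted as gained.

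Loci at or near 0 in a group, such as SLC7A11 in normoxia (0 to 0.599 CPM in the NT3 and NT5 libraries), have fitted differences that depend on the prior count. Reads of loci with several genes cannot be divided, and near-identical gene copies cannot be told apart where the counting is not stated. The alternatives by list and the counts of other days were chosen after the data were seen.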

Other observations

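Families by symbol were counted after the data were seen, over single-gene loci and with no test. Of 62 mitochondrial ribosomal protein genes, 14 rose and 1 fell, with a median difference of 0.56, and of 41 translation initiation factor genes, 13 rose and 1 fell. Of 111 cytosolic ribosomal protein genes, which can share reads with pseudogenes, 2 rose and 3 fell, with a median of -0.24. Over all loci, 8.64% rose and 11.1% fell. 5 of 13 keratin genes rose and 0 fell. None of 17 semaphorin genes, which guide axons and vessels, rose and 8 fell. Of 29 cytochrome P450 genes 1 rose and 9 fell, and of 21 forkhead transcription factor genes 1 rose and 8 fell. Of 251 solute carrier genes, 28 rose and 29 fell. Of 232 zinc finger genes, 8 rose and 26 fell.

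The difference varied with the annotated span of the locus, which was also looked at after the data were seen. Of the 1263 loci with the longest span, 19.0% fell and 4.83% rose, against 7.05% and 7.05% of the 1263 with the shortest. The median difference of the longest group was -0.29, with a median effect of -0.01 on day 3 and -0.27 on day 7. Called loci that rose had a median span of 8.4 kb and called loci that fell one of 30.7 kb, against 27.9 kb over all loci. The part of the span in these results was not tested.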
